A study of Mus musculus with 29 samples.

Results

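The regions described here carry H3K27ac in wild-type adult microglia, are bound there by the transcription factor IRF8, and have no H3K27ac peak in microglia without IRF8. They were chosen by the H3K27ac peak lists of both genotypes and the adult IRF8 peak lists. A region is a merged stretch with an H3K27ac peak in both WT libraries. It counts as bound when it overlaps an adult IRF8 region seen in at least 2 of 3 libraries, and as lost when neither IRF8KO H3K27ac library lists a peak that overlaps it. Of 36697 such WT H3K27ac regions, 12943 were IRF8-bound, and 2713 of these were lost. The other 10230 bound regions, with a peak in at least 1 IRF8KO library, are called kept and serve as the comparison. The share without an IRF8KO peak was 34% of all WT H3K27ac regions, 21% of the IRF8-bound ones and 41.2% of those without adult IRF8. These values follow from the choice of members and are a description.

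Binding and marks were mapped by CUT&RUN, in which an antibody directs a nuclease to a chromatin protein and the released DNA is sequenced. IRF8 was mapped through its EGFP tag with an antibody against GFP, in microglia of the IRF8-EGFP strain at postnatal day 9 (P9, 4 libraries), at P14 (3 libraries) and in adults (3 libraries), and in peritoneal macrophages of the same strain (3 libraries). PU.1, H3K27ac and H3K4me1 were mapped in adult WT and IRF8KO microglia (2 libraries per genotype for every target). All mice were female, microglia were sorted, the labels give 3 months as the age of all adult mice, IRF8-EGFP, WT and IRF8KO, and no treatment of the animals is named. The labels do not describe the knockout allele or the cells that carry it. The IRF8KO H3K27ac libraries are 2 of 3 and the P9 libraries 4 of 7 that the labels number. Libraries that carry numbers within a group are not said to come from separate animals, so p-values over libraries measure only the spread between these libraries.

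IRF8 is a transcription factor of the interferon regulatory family that microglia and other myeloid cells depend on for their development. It binds DNA weakly alone and is known to bind with PU.1, the ETS-family factor that opens myeloid enhancers, at composite sites in which an ETS core and an IRF core lie side by side. H3K4me1 marks enhancers whether or not they are active, whereas H3K27ac marks active enhancers and promoters.

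The sequences below show motif matches inside lost regions. The composite ETS-IRF motif was searched as GGAANNGAA and the interferon-response-like motif as GAAANNGAA, on both strands, where N is any base, and matches of the 2 motifs may overlap. Capitals mark every match of either motif, and all other bases are in lower case. Each stretch is 201 bases of the plus strand of GRCm38.p6 (RefSeq), the same build as mm10. The first pair come from the regions of strongest PU.1 absent from the knockout and hold an interferon-response-like match within 100 bp of the centre of the IRF8 region. The search for either motif there covered the 8 regions of strongest adult IRF8 and the 8 of strongest PU.1 absent from the knockout, outside annotated untranslated regions. No other stretch is shown from that search, and neither of the pair holds a composite match.

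Id2, chr12:25330220-25330420: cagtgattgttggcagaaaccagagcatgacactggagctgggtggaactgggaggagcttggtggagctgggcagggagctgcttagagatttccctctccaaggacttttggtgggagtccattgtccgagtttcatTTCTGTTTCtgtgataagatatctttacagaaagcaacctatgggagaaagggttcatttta

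Stpg4, chr17:87391630-87391830: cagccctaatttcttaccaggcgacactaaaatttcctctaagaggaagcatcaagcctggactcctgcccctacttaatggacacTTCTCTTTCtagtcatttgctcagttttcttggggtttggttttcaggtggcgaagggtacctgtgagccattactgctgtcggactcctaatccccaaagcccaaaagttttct

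The next 6 stretches are centred on the match nearest to the strongest IRF8 summit and were chosen after their values were seen. They come from regions whose values are given further on, to show the composite match or, at Sall1, the interferon-response-like match in its surroundings.

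Usp6nl, chr2:6459635-6459835: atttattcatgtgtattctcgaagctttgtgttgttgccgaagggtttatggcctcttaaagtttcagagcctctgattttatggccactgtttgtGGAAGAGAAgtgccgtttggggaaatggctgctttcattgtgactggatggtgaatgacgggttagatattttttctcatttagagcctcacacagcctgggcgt

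Asap1, chr15:64447364-64447564: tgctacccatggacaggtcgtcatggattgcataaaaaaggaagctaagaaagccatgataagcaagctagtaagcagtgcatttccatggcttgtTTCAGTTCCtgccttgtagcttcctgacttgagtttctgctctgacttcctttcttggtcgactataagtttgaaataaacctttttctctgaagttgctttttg

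Lrrc40, chr3:158077445-158077645: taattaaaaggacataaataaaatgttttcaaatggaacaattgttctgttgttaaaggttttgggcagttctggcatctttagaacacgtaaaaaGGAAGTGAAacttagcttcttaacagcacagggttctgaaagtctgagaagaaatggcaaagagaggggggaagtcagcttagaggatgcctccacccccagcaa

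Plxna1, chr6:89280610-89280810: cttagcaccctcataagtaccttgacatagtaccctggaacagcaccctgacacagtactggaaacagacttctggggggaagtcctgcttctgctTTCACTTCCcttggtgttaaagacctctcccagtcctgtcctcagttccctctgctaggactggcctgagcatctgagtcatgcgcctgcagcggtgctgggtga

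Vwc2l, chr1:70856106-70856306: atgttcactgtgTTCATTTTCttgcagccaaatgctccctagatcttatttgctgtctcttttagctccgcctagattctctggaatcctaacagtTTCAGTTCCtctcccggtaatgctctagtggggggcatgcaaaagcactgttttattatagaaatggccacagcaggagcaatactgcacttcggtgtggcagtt

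Sall1, chr8:89286278-89286478: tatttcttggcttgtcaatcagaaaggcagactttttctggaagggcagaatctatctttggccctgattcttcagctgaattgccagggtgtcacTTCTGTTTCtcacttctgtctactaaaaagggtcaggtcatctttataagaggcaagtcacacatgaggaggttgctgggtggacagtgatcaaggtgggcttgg

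The first 5 of these hold a composite match, 118 to 180 bp from the summit, and the Sall1 stretch holds an interferon-response-like match 145 bp from it. A match is a description of letters and was not tested as a site.

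Lost regions were narrower and weaker in WT than kept ones, which is part of how they were chosen. Their median width was 1504 bp against 2634 bp. The median within-list percentile of the deposited H3K27ac −log10 p, averaged over both WT libraries, was 68.4 at lost and 85.9 at kept regions. The fold enrichment over control, as the authors deposited it, had a median of 5.39 and 5.89 in WT replicates 1 and 2 at lost regions, against 7.40 and 7.85 at kept regions. Adult IRF8 strength differed less, with a median percentile of 60.1 against 63.2.

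Absence of a peak is not absence of signal. IRF8KO replicate 2 had 8.57 M fragments and 31524 H3K27ac regions, against 14.7 M and 88400 for replicate 1 and 72354 and 72875 regions in WT. Among the kept regions, 4864 had a peak in IRF8KO replicate 1 only, 403 in replicate 2 only and 4963 in both, with median WT H3K27ac percentiles of 80.3, 72.3 and 90.7. Without IRF8KO replicate 1 the number of lost regions would be 7577, and without replicate 2 it would be 3116. At the IRF8 end of the rule, 1311 lost regions overlapped a peak in 2 adult libraries and 1353 in all 3. The rest overlapped a peak of 1 library, since the merged IRF8 region that made them bound extends beyond them. Another 1877 regions absent from the knockout had an IRF8 peak in 1 library only and no such IRF8 region, and were left out. Without adult IRF8 replicate 1 the number would be 1718, and without replicate 2 it would be 1334. The nearest IRF8KO H3K27ac peak lay a median of 4149 bp from a lost region, and within 1 kb for 15.7% of them. Because sorted cells were measured in bulk, fewer cells of one kind and less mark per cell cannot be told apart.

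A smaller share of lost than of kept regions lay at promoters. A region was placed at a promoter when it overlapped the 1 kb to either side of the transcription start of a protein-coding gene. This held for 652 of 2713 lost regions, or 24.0% (95% Wilson interval 22.5 to 25.7), against 37.4% (36.4 to 38.3) of kept regions. Introns held 35.2% of lost regions, intergenic sequence 36.4% and exons 4.42%, against 32.4%, 27.8% and 2.49% of kept regions. Intervals here and below cover counting error only. Within each quintile of WT H3K27ac strength the promoter share was lower at lost regions, from 24.6% against 40.8% in the weakest quintile to 11.97% against 30.4% in the strongest. Without IRF8KO H3K27ac replicate 1 the shares were 33.7% at lost and 35.7% at kept regions. The share of bound regions that were lost ranged from 16.9% on chromosome 15 to 28.4% on chromosome X, and was 43 of 147 regions, or 29.3%, within 10 Mb of the Irf8 gene.

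PU.1 peaks at lost regions were fewer in the knockout. A PU.1 peak overlapped 38.1% and 27.4% of lost regions in the WT libraries, and 13.9% and 14.7% in the IRF8KO libraries. At kept regions the same shares were 54.8% and 44.8% in WT and 42.9% and 41.9% in IRF8KO. At lost regions the lowest WT library lay well above both IRF8KO libraries, and at kept regions the genotypes lay closer together. The ratio of the lost to the kept share was 0.653 ± 0.058 in WT and 0.337 ± 0.0187 in IRF8KO (SD, n = 2 libraries each). The 2 genotypes did not overlap, but an exact permutation test of 2 against 2 libraries cannot go below p = 0.333, which is the p it gave.

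**Figure D1:**
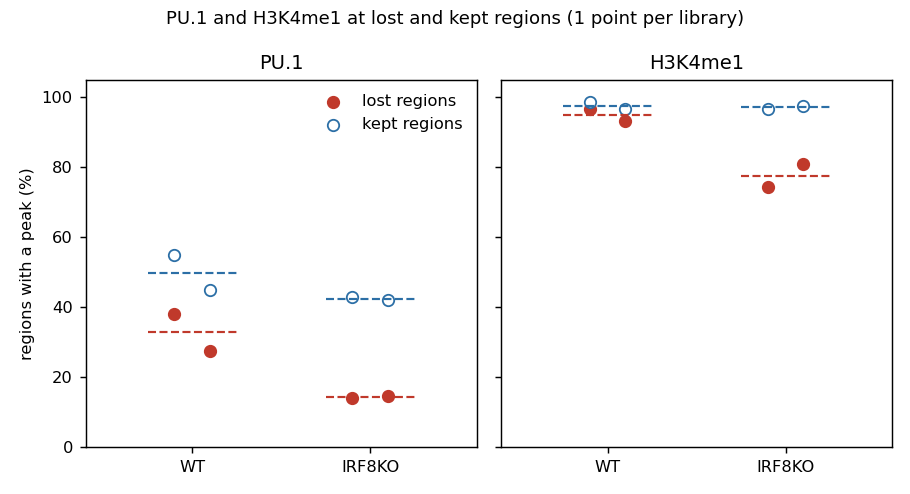
Share of the 2713 lost (filled) and 10230 kept (open) regions that overlap a PU.1 peak (left) or an H3K4me1 region (right), in percent, with 1 point per library and dashed lines at group means. PU.1 at lost regions sits at 38.1% and 27.4% in WT and at 13.9% and 14.7% in IRF8KO, whereas the lowest H3K4me1 share is 74.3%.

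Counted over PU.1 regions, about 1 in 4 WT PU.1 regions (peaks in both WT libraries) had no peak in either IRF8KO library, namely 1347 of 5359, or 25.1%. At lost regions this was 273 of 534, or 51.1% (46.9 to 55.3), and at kept regions 735 of 3892, or 18.9% (17.7 to 20.1). The IRF8KO PU.1 lists held 10182 and 12509 regions and the WT lists 14057 and 9490, so list lengths of the genotypes overlapped. Each IRF8KO library alone listed 38.0% and 37.1% of the PU.1 regions at lost regions, against 70.9% and 69.0% of those at kept regions. The difference was seen in all 5 quintiles of WT PU.1 strength, from 65.4% against 36.3% absent among the weakest PU.1 regions to 40.5% against 7.40% among the strongest.

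The share of absent PU.1 regions was higher with the H3K27ac strength of the lost region around them. From the weakest to the strongest quintile of WT H3K27ac strength it was 32.0%, 41.5%, 56.8%, 69.6% and 85.2%, with 153, 130, 111, 79 and 61 PU.1 regions. At kept regions it lay between 16.9% and 21.6% in all 5 quintiles. Among lost regions with a PU.1 peak in both WT libraries, 247 of 415 distal ones (59.5%, 54.7 to 64.1) and 28 of 127 promoters (22.0%, 15.7 to 30.0) had no PU.1 peak in IRF8KO. At kept regions these shares were 18.9% and 10.8%.

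**Figure D2:**
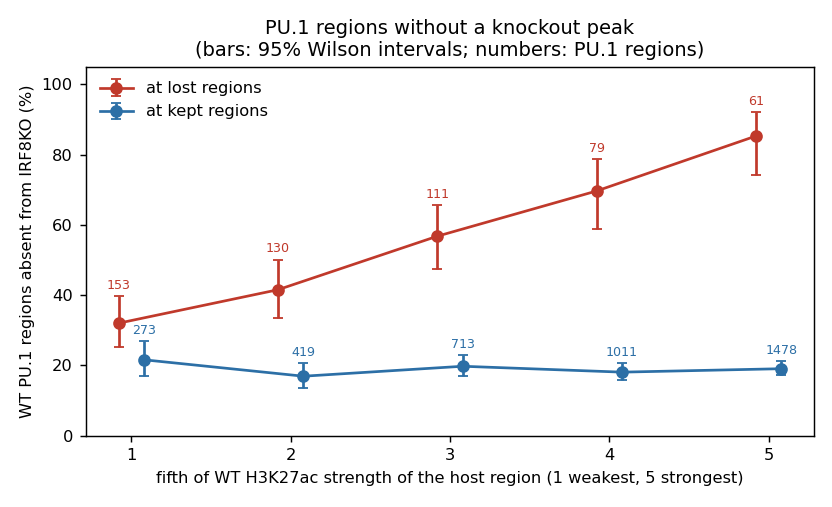
Percent of WT PU.1 regions without a peak in either IRF8KO library (y) by quintile of WT H3K27ac strength of the region that holds them (x), at lost and kept regions. Bars are 95% Wilson intervals and numbers are PU.1 regions; the lost series runs from 32.0% to 85.2% while the kept series stays between 16.9% and 21.6%.

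H3K4me1 mostly stayed by the peak lists. The mark overlapped 96.7% and 93.2% of lost regions in the WT libraries and 74.3% and 80.9% in IRF8KO, against 98.6%, 96.6%, 96.7% and 97.4% of kept regions in the same order. Both WT and both IRF8KO libraries listed it at 62.6% of lost and 91.9% of kept regions. The IRF8KO libraries were deeper, with 15.8 and 23.9 M fragments and 113370 and 189351 regions. WT libraries had 14.5 and 14.1 M fragments and 104818 and 129859 regions. The ratio of the lost to the kept share was 0.973 ± 0.0114 in WT and 0.799 ± 0.0438 in IRF8KO (SD, n = 2 each), without overlap, and the exact permutation p was again 0.333, the smallest possible. The WT H3K4me1 regions at lost regions were absent from both IRF8KO libraries in 177 of 2434 cases, or 7.27% (6.31 to 8.37), against 36 of 8098 at kept regions (0.445%) and 13% of all 49737 WT H3K4me1 regions. Without IRF8KO H3K27ac replicate 1 the shares were 3.11% at lost and 0.191% at kept regions. Of IRF8KO libraries, replicate 2 alone missed 11.9% and replicate 1 alone missed 18.2% of those at lost regions, against 1.32% and 1.81% at kept regions. The kept values 0.191%, 1.32% and 1.81% include H3K4me1 regions that also overlap a lost region, which 0.445% leaves out. Counted with them, the kept share over all libraries was 0.421%. The H3K4me1 regions at lost regions were strong within their lists (median percentile 89.4), and from the weakest to the strongest quintile of H3K4me1 strength 2.94%, 3.08%, 6.37%, 7.71% and 7.87% were absent at lost against 4.72%, 0.415%, 0.606%, 0.605% and 0.191% at kept regions. In the weakest quintile, with 34 lost and 127 kept cases, the share was thus not higher at lost regions.

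The mark also shrank inside lost regions. H3K4me1 covered 90.8% and 86.1% of the base pairs of lost regions in WT and 59.2% and 65.1% in IRF8KO. At kept regions the coverage was 93.0% and 89.4% in WT and 86.0% and 88.0% in IRF8KO. The H3K4me1 lists covered 314 and 468 Mb of the genome in IRF8KO and 293 and 321 Mb in WT. Of 504 lost regions with both a WT PU.1 and a WT H3K4me1 region, 249 (49.4%) had lost every PU.1 region and no H3K4me1 region, and 14 (2.78%) had lost both. At kept regions these were 634 of 3603 (17.6%) and 2 of 3603 (0.0555%).

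Most lost regions had no IRF8 peak at P9. The share with a peak was 5.75%, 5.79%, 9.80% and 5.20% in the 4 P9 libraries, 35.1%, 68.3% and 33.8% in the 3 P14 libraries, and 42.2%, 34.6% and 11.8% in the 3 macrophage libraries. Every P14 and every macrophage library lay above every P9 library, while P14 and macrophage libraries overlapped. At kept regions the means were 9.70% at P9, 53.9% at P14 and 45.1% in macrophages, so the same order was seen there. The P9 lists were also the shortest, with 1168 to 2068 regions against 7931 to 19243 at P14 and 9788 to 23163 in macrophages, and the part of list length in the differences was not tested. The difference at lost regions was 39.1 percentage points for P14 minus P9 and 22.9 for macrophage minus P9, each with exact permutation p = 0.0286, the smallest possible, and 0.0571 after Benjamini-Hochberg adjustment over 6 tests. Macrophage minus P14 was −16.2 points (exact permutation p = 0.5). P9, P14, adult and macrophage libraries were each called against a control library of their own, so stage or tissue and control cannot be told apart. The labels give batches only for adult microglia and macrophages: macrophage replicates 1 and 2, of batch 1, had 42.2% and 34.6%, and replicate 3, of batch 2, had 11.8%, still above all P9 libraries.

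At the level of regions, 173 lost regions (6.38%) had IRF8 at P9 in at least 2 libraries and a further 964 (35.5%) at P14 but not at P9. Another 845 (31.1%) had scattered P9 or P14 peaks below that rule, and 731 (26.9%) had none. In the same order these classes made up 9.77%, 40.9%, 29.9% and 19.5% of kept regions. Of the P9 class 15.0% (10.5 to 21.1) lay at promoters, against 26.8% (23.7 to 30.1) of lost regions with no P9 or P14 peak, and the kept regions of these classes showed the same order (27.4% against 38.6%). All WT PU.1 regions were absent from the knockout at 62 of 104 regions of the P9 class (59.6%, 50.01 to 68.5) and at 17 of 38 of the last class (44.7%, 30.1 to 60.3), and these intervals overlap. At kept regions the shares were 15.4% and 27.1%.

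Taken over all regions, lost regions were less often bound than kept ones in each library outside the rule. The share was lower in 10 of 10 P9, P14 and macrophage libraries, by 8.34 percentage points on average (exact two-sided sign-flip permutation test, p = 0.00195, the smallest that 1024 sign patterns give). Weighting the kept regions to the adult IRF8 strength of the lost ones left a mean of −7.12 points (same p). Weighting them to the H3K27ac strength of the lost regions, chosen after seeing the data, left −3.80 points, lower in 8 of 10 libraries (exact sign-flip permutation p = 0.0625), and weighting to their width left −3.85 points (p = 0.0117 in the same test). With H3K27ac weighting the differences lay between −1.796 and 0.689 points in the P9 and P14 libraries and between −16.0 and −5.44 points in the macrophage libraries. The lower share therefore remained in all 3 macrophage libraries, and at P9 and P14 it was small and of either sign. Without weighting, on the log2 scale, the ratio of lost to kept shares was −0.55 ± 0.10 (SD) over the 4 P9 libraries. It was −0.26 ± 0.11 over the 3 P14 libraries and −0.65 ± 0.11 over the 3 macrophage libraries. The P14 ratio exceeded that at P9 by 0.29 (exact permutation p = 0.0286, adjusted 0.0571), but by −0.01 with H3K27ac weighting (p = 0.943) and by 0.10 among peaks with −log10 p of at least 10 (p = 0.429). The macrophage ratio differed from P14 by −0.39 (p = 0.1, the smallest possible in this exact permutation test of 3 against 3, adjusted 0.15), or by −0.10 (p = 0.4) without IRF8KO H3K27ac replicate 1, and from P9 by −0.10 (exact permutation p = 0.343). The last difference was −0.50 with H3K27ac weighting (exact permutation p = 0.0286, adjusted 0.0571), and changed sign to 0.39 when regions absent from only 1 IRF8KO library were counted as lost.

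**Figure D3:**
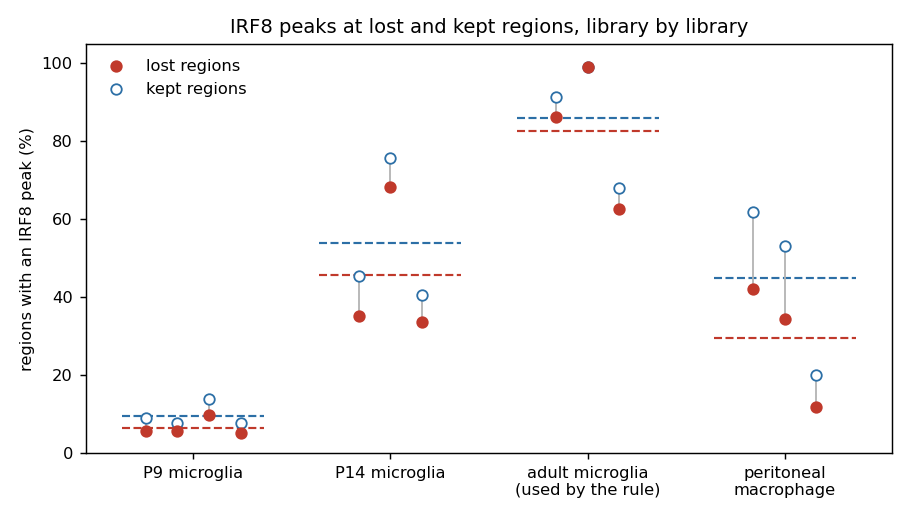
Percent of lost (filled) and kept (open) regions with an IRF8 peak in each library, by stage and cell type; grey lines join the values of 1 library and dashed lines are group means. Without weighting, lost regions lie below kept ones in all 10 P9, P14 and macrophage libraries; the adult libraries entered the rule and carry no comparison.

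A smaller share of lost than of kept regions was bound in macrophages at each level of H3K27ac. A macrophage IRF8 region (at least 2 of 3 libraries) overlapped 30.6% of lost and 47.6% of kept regions. By quintile of WT H3K27ac strength, from weakest to strongest, the shares were 27.9%, 31.6%, 32.9%, 35.4% and 29.6% at lost regions against 39.8%, 41.9%, 45.5%, 52.2% and 53.9% at kept ones. For P14 the same shares were 34.1%, 40.9%, 43.9%, 58.6% and 71.8% against 34.6%, 39.4%, 47.4%, 55.8% and 66.2%, so lost and kept regions crossed. Regions bound at P14 with no macrophage peak in any library made up 16.8% of lost and 9.68% of kept regions.

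Around the centre of the IRF8 region the composite ETS-IRF motif was more frequent at lost than at kept regions, and a plain ETS motif differed less in the same window. Within 100 bp of the centre of the strongest IRF8 region the composite motif occurred in 387 of 2713 lost regions, or 14.3% (13.0 to 15.6), and in 9.42% (8.87 to 10.0) of kept regions. Without IRF8KO H3K27ac replicate 1 the shares were 11.1% and 9.47%. The share was 10.8% over all 16935 adult IRF8 regions, and 6.93% and 6.37% in windows 1 kb away from the lost and kept centres. The ETS motif AGGAAGT occurred in 15.0% of lost and 13.4% of kept regions, and the interferon-response-like motif in 9.40% and 8.48%. A composite match can overlap an ETS match. The AP-1 motif TGANTCA (5.31% against 6.38%) and the E-box CACGTG (3.43% against 3.83%) were at 5.42% and 2.36% in windows 1 kb away from the lost centres, and the MEF2 motif CTATTTATA occurred in 7 lost regions.

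The motifs were more frequent beside the summits that the authors' peak caller gave than at them. Within 100 bp of the strongest summit the composite motif occurred in 7.74% of lost and 7.097% of kept regions, and the ETS motif in 7.85% and 9.35%. In windows 1 kb away from the centres the ETS motif occurred in 4.50% and 5.42%. In a count added after the data were seen, composite matches per 50-bp bin numbered 2.34 per 100 lost regions within 50 bp of the strongest summit, 6.38 at 100 to 200 bp from it, and 1.95 at 400 to 500 bp. Kept regions gave 1.83, 4.24 and 1.87. ETS matches had the same 2 shoulders, at 6.98 per 100 lost and 6.74 per 100 kept regions. In that shoulder window 636 lost regions (23.4%) and 15.7% of kept regions held a composite match, whereas 24.7% and 23.9% held an ETS match.

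**Figure D4:**
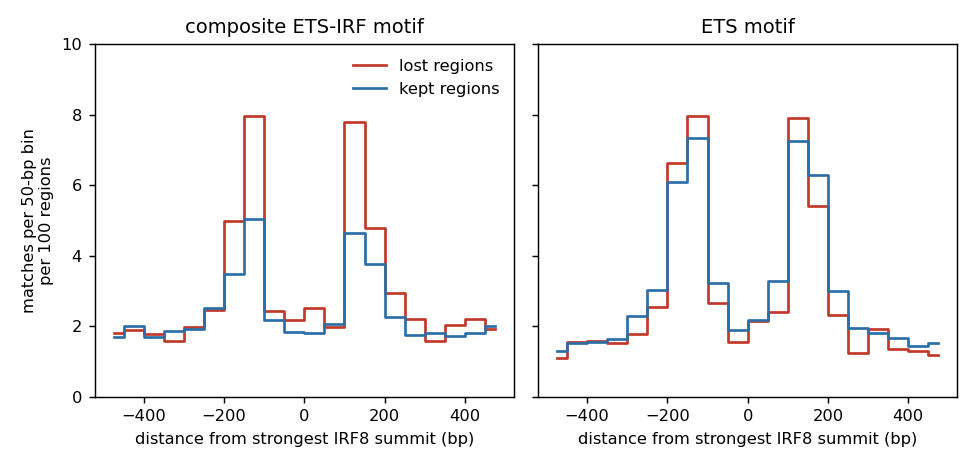
Matches per 50-bp bin per 100 regions (y) by distance in bp from the strongest adult IRF8 summit (x), for the composite ETS-IRF motif (left) and the ETS motif (right), at lost and kept regions. Both motifs peak 100 to 200 bp to either side of the summit; there the composite motif averages 6.38 at lost against 4.24 at kept regions, and the ETS motif 6.98 against 6.74.

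The shoulder share of the composite motif varied among lost regions. It was 27.1% at distal and 11.8% at promoter regions, against 18.3% and 11.5% of kept ones, so promoters differed little. It was 34.8% (29.4 to 40.7) where all WT PU.1 regions were absent from the knockout and 20.1% (15.7 to 25.4) where none were, against 25.2% and 17.4% at kept regions. It was 38.2% (31.2 to 45.6) of the regions bound at P9, against 18.3% (15.7 to 21.3) of those with no P9 or P14 peak. The kept values of these classes were not counted. Of lost regions in the strongest quintile of adult IRF8 strength 26.4% were bound at P9, against 0.344% in the weakest. The part of IRF8 strength in the stage contrast was not tested. In the strongest quintile of WT H3K27ac the shoulder share was 33.8% at lost and 17.2% at kept regions.

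Each region was assigned to the protein-coding gene with the nearest transcription start, which names a place and not a target. The lost regions fell to 2197 of the 6737 genes with any bound region. Of these genes, 1826 had 1 lost region, 271 had 2 and 100 had 3 or more, and 1183 also had a kept region. By the fixed rules the 8 regions of strongest H3K27ac, the 8 of strongest adult IRF8, the 8 of strongest PU.1 among those with all PU.1 absent from IRF8KO, and the 6 of strongest H3K27ac with H3K4me1 absent were examined singly. They were 29 regions, since 1 was in 2 sets. Only 2 lay at promoters. A WT PU.1 peak was present at 24 of them, and at 22 of these no IRF8KO library had one, 8 of which were chosen for that. Over all lost regions, 24.0% lay at promoters, 45.5% had a PU.1 peak in any WT library and 79.3% had none in IRF8KO. The 29 were ranked by strength and do not stand for all lost regions.

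**Figure D5:**
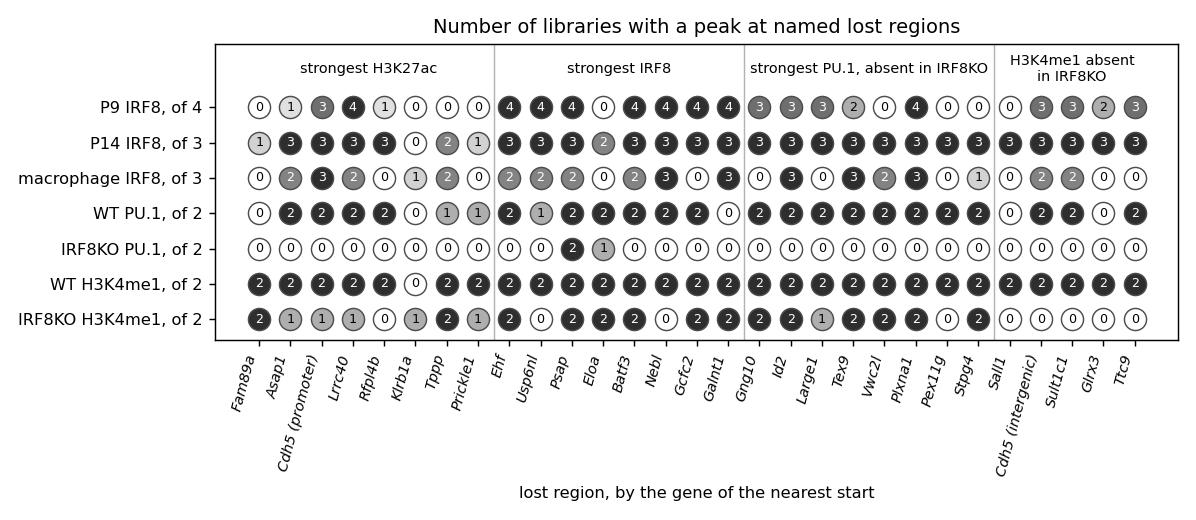
Number of libraries with a peak (digit and grey shade) at the 29 singly examined lost regions, with 1 column per region, labelled by the gene of the nearest start, and 1 row per group. IRF8KO PU.1 is 0 at all but the Psap and Eloa regions, and P14 IRF8 is present in all 3 libraries at 24 of the 29. Over all lost regions, 79.3% had no IRF8KO PU.1 peak.

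The strongest H3K27ac lost from the knockout lay 15699 bp from the start of Fam89a, at chr8:124766395-124768666, with fold enrichments of 16.3 and 19.6 in WT. No library showed PU.1 there, and H3K4me1 was present in both genotypes. Next was an intergenic region 65015 bp from Asap1, which encodes a GTPase-activating protein for ARF proteins, at chr15:64446695-64449173. It had H3K27ac folds of 14.8 and 22.6, IRF8 folds of 12.4, 16.9 and 7.84 in the adult libraries, and PU.1 folds of 10.6 and 9.25 in WT with no IRF8KO PU.1 peak. The region 41095 bp from Lrrc40 (chr3:158076865-158078649) had PU.1 folds of 10.7 and 7.93 in WT and none in IRF8KO, and IRF8 peaks in all 4 P9 and all 3 P14 libraries. At both the Asap1 and the Lrrc40 region, 1 of 2 IRF8KO libraries listed H3K4me1. The region 610127 bp from Rfpl4b (chr10:38209342-38213962) had PU.1 folds of 8.07 and 5.17 in WT, and neither PU.1 nor H3K4me1 in IRF8KO.

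Among the regions of strongest IRF8, the promoter of Ehf came first. Ehf encodes an ETS-family factor best known from epithelia. At chr2:103289019-103292868 the IRF8 folds were 35.7, 41.6 and 35.2 in the adult libraries, with peaks in all 4 P9 and all 3 P14 libraries. WT PU.1 folds of 8.59 and 5.03 had no counterpart in IRF8KO, while H3K4me1 was listed in both genotypes. At the region 107129 bp from Usp6nl, which encodes a GTPase-activating protein for Rab5 (chr2:6459129-6460594), the IRF8 folds were 41.0, 33.9 and 18.5 and H3K4me1 was absent from both IRF8KO libraries. The region 16687 bp from Batf3 (chr1:191113463-191116560) had IRF8 folds of 26.5, 26.2 and 19.9, and WT PU.1 folds of 5.55 and 6.90 with none in IRF8KO. Batf3 encodes an AP-1 family factor that works with IRF8 in dendritic cells.

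The region 3766 bp from Psap, the gene of the lysosomal saposin precursor, and the region 6465 bp from Eloa were the only ones of this set with PU.1 in the knockout. Eloa had it in 1 of 2 IRF8KO libraries. At the Psap region, at chr10:60273321-60274400 PU.1 was present in every library, with folds of 12.03 and 6.87 in WT and 9.08 and 7.31 in IRF8KO. Its H3K27ac was weak in WT, with folds of 4.32 and 3.03. Of the 8 regions of strongest IRF8, 7 were bound in at least 2 P9 libraries and 6 in at least 2 macrophage libraries.

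The strongest PU.1 regions absent from the knockout included 1 that lies 7171 bp from Gng10, a G-protein gamma subunit gene, at chr4:59038471-59046047, with PU.1 folds of 18.7 and 14.5 in WT. It had IRF8 in 3 of 4 P9 libraries and in no macrophage library. The region 230785 bp from Id2, whose product inhibits basic helix-loop-helix factors (chr12:25324675-25331175), had PU.1 folds of 15.6 and 13.8 in WT and IRF8 in all 3 macrophage libraries. Both kept H3K4me1 in both IRF8KO libraries. In the introns of Tex9 and Vwc2l the WT PU.1 folds were 14.1 and 13.5, and 12.8 and 11.0. At the region 77436 bp from Plxna1, a semaphorin receptor gene, they were 13.1 and 11.7. All 8 regions of this set were bound by IRF8 in all 3 P14 libraries, and 6 kept H3K4me1 in both IRF8KO libraries.

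Sall1, a zinc-finger factor that marks microglial identity, had the most lost regions, 13 of its 14 bound regions on chromosome 8, the promoter among them. None had a macrophage IRF8 region, all 3 with PU.1 in both WT libraries had none in IRF8KO, and the strongest, 242228 bp from the start at chr8:89284465-89288314, had H3K27ac folds of 11.2 and 17.0 and H3K4me1 in no IRF8KO library. The other genes with the most lost regions were Frmd4a with 7 of 20, and Macc1 (5 of 5), Mllt3 (5 of 5), Arhgap22 (5 of 7), Col25a1 (5 of 7), Vrk1 (5 of 9) and Plcl1 (5 of 13). Macc1 regions were all bound at P14 but only 1 kept H3K4me1 in any IRF8KO library. Mllt3, a reader of acylated histones, kept H3K4me1 at all 5 in at least 1 library.

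Gene lists were set beside the 21% of all bound regions that were lost. Homeostatic microglia genes had 19 of 57 bound regions lost, 13 of them at Sall1. The Cx3cr1 promoter (chr9:120067250-120069343) and the Slc2a5 promoter (chr4:150119804-150121042), the genes of the fractalkine receptor and a fructose transporter, were each the only bound region of the gene and were lost. H3K27ac folds in WT were 6.17 and 7.85 at Cx3cr1 and 10.2 and 8.51 at Slc2a5. PU.1 was present in both WT and no IRF8KO library at either promoter, H3K4me1 was present in all 4 libraries, and no macrophage library had an IRF8 peak. Csf1r, the receptor for the growth factor that keeps microglia alive, had 2 of 4 regions lost, neither at its promoter. Disease-associated microglia genes had 5 of 27 lost, 3 of them the 3 bound regions of Lgals3 (galectin-3).

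Of myeloid transcription factor genes, 20 of 124 bound regions were lost. Among them, Maf had 4 of 16, Batf3 2 of 5, Klf4 2 of 9, Smad3 2 of 3 and Egr1 2 of 4. TGF-beta pathway genes had 15 of 76, with 5 of 13 at Smad7, the pathway's inhibitor, 2 of 15 at the receptor gene Tgfbr2 and 2 of 11 at Id2. Lysosomal genes had 12 of 58, with 3 of 9 at Ctsc and 3 of 5 at Ctsh, both cathepsins, and 2 of 4 at Npc2. All 3 Ctsh regions were bound in macrophages. Chemotaxis and purinergic genes had 11 of 47, with 2 of 3 at Ccl12 and 2 of 7 each at Adora3 and Entpd1. Phagocytosis and complement genes had 7 of 38 and interferon response genes 5 of 20.

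Pattern recognition and inflammasome genes had 10 of 42 lost, among them 3 of 4 at Nlrp3 and the promoters of Naip2, Naip5 and Naip6, which encode sensors of bacterial flagellin and secretion systems. At the Naip promoters the WT H3K27ac folds were 8.84 and 7.49, 8.40 and 11.4, and 5.91 and 6.87. All 3 were bound by IRF8 in every P14 and macrophage library. These genes are near-identical copies, so reads may be shared between them. Antigen presentation genes had 1 of 13 lost, at the promoter of Nlrc5, the transactivator of MHC class I genes.

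Border and peritoneal macrophage genes had 5 of 28 lost, with all 3 bound regions of the scavenger receptor gene Marco. Markers of other brain cells were also present among lost regions: 4 of 4 at Cnp of oligodendrocytes, 3 of 3 at Cdh5 of endothelium and 3 of 4 at Slc1a2 of astrocytes. As whole lists, oligodendrocyte genes had 5 of 11 lost, endothelial and mural genes 5 of 6 and astrocyte genes 4 of 12, with 1 of 7 at Slc1a3. At the Cdh5 promoter (chr8:104106127-104112189) WT H3K27ac folds were 12.3 and 14.3, and IRF8 was present in 3 of 3 adult and 3 of 3 macrophage libraries. Over 42 markers of neurons, astrocytes, oligodendrocytes and endothelium, H3K27ac marked 10 and 11 promoters in WT and 5 and 1 in IRF8KO, against 9 and 10, and 7 and 5, of 10 microglia markers. Of 20 border and peritoneal macrophage markers it marked 8 and 9 in WT and 11 and 7 in IRF8KO. Of 10 lymphocyte markers it marked 0 and 2 in WT and 2 and 1 in IRF8KO. Together 15 of the 30 bound regions nearest to the 42 markers of other brain cells were lost, which is 15 of all 2713 lost regions. Nearest to the 10 microglia markers, 16 of 37 bound regions were lost, 13 of them at Sall1. The part of the regions near markers of other brain cells in the results was not tested.

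Regions lost without adult IRF8, of which there were 9778, differed from the IRF8-bound lost ones. They lay at promoters in 11.7%, were bound at P14 in 0.982% and held a WT PU.1 region in 1.08%, against 24.0%, 41.9% and 19.4%. They were chosen for having no adult IRF8 region, which bears on their P14 share. Their median width was 1126.5 bp against 1504 bp, and their median WT H3K27ac percentile 46.8 against 68.4. The part of the rule, width and strength in these differences was not tested. The PU.1 regions they did hold were absent from IRF8KO in 66 of 106 cases (62.3%), and their H3K4me1 regions in 6.42%, against 51.1% and 7.27% at IRF8-bound lost regions.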

How the data were processed

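CUT&RUN peak lists of 25 libraries were used. Per the file headers, every library got its own peak list from the authors, made with MACS 2.2.7.1 (IRF8, PU.1) or 2.2.6 (histone marks) at a q-value of 0.01 (0.05 for PU.1 replicate 2 of both genotypes), joining gaps up to 640 bp, and at a p-value of 0.01 for H3K4me1, in broad mode with a minimum length of 1000 bp. The deposited −log10 p and fold enrichment over control are the authors' values and were used only to describe or rank peaks within a list. The submitters' processing notes name mm10, Bowtie2 and Trim Galore. Libraries held 7.25 to 24.7 M fragments; IgG libraries entered only through the authors' calls, and the headers show 5 control libraries by depth, with PU.1 replicate 2 of both genotypes called against another than the rest of the adult libraries.

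Regions were merged and overlapped (at least 1 bp) in Python 3.11.15. All peaks fit within GRCm38.p6 chromosome lengths; genes are GENCODE vM21. Adult IRF8 strength and H3K27ac strength are mean within-list percentiles of −log10 p. Library shares were compared by exact permutation or sign-flip tests, after checks on simulated lists; other shares carry Wilson intervals. Singly named regions follow the rules given with them, and genes of a list were named with at least 2 lost regions or as lone promoters; 1 such gene and 1 sequence are not reported here. Members, lists and rules were chosen with earlier results of these data known. Replicate numbers are shared between IRF8 groups but did not pair libraries (correlations of same-numbered libraries −0.0221 to 0.0288). The source label of macrophage libraries names microglia; their titles were followed.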

Additional observations from a re-analysis of the deposited data

Results flagged for a closer look

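P9 IRF8 replicate 3 lay far from the other P9 libraries: 9.80% of lost regions had a peak there, against 5.20% to 5.79% in the other 3. Its list was also the longest of the 4, with 2068 regions against 1168 to 1366. Such a gap appears by chance in about 1 in 20 groups of this size. Its ratio of lost to kept shares was not set apart.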

How the results depend on the processing

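The PU.1 share absent from IRF8KO was higher at lost than at kept regions in all 19 settings (1.94 to 3.41 times), the H3K4me1 share in all 19 and the composite motif share in all 17; the promoter share was lower in all 16, though only 33.8% against 35.8% with absence from 1 IRF8KO library enough. The lower IRF8 share at lost regions kept its sign in every alternative run, with p up to 0.0117 except under H3K27ac weighting (added after seeing the data), which gave −3.80 points (exact permutation p = 0.0625) and turned the P14 minus P9 log2 difference to −0.0113. With IRF8 required in all 3 adult libraries, 1397 regions were lost, 22.0% at promoters. With −log10 p of at least 10, 704 were lost, 15.9% at promoters and with 63.9% of PU.1 regions absent; the log2 differences were 0.10 (P14 minus P9), −0.49 (macrophage minus P9) and −0.59 (macrophage minus P14). With absence from only 1 IRF8KO library enough, 7980 were lost: PU.1 33.9%, H3K4me1 3.04%, motif 11.0%, share differences of 40.3 (P14 minus P9) and 29.7 points (macrophage minus P9), and log2 ratio differences of 0.49 and, reversed, 0.39. With all 4 H3K27ac lists cut to 31524 (added after seeing the data), H3K4me1 was 4.06%, promoters 28.3%, motif 12.3% and the macrophage minus P9 log2 difference, reversed, 0.0326. Promoter shares were 20.9% by region centre and 29.1% within 2.5 kb. Motif shares at lost against kept regions were 7.74% and 7.097% at the summit, 29.0% and 20.97% within 250 bp and 23.4% and 15.7% at 100 to 200 bp from the summit (added). The cause of these changes was not tested.

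Leaving out 1 library gave 1334 to 7577 lost regions, PU.1 34.3% to 65.3%, H3K4me1 3.11% to 18.2%, promoters 22.3% to 33.7%, motif 11.1% to 18.8%, share differences of 27.8 to 50.2 and 16.5 to 31.8 points, and log2 differences of 0.22 to 0.47 (P14 minus P9) and −0.20 to 0.36 (macrophage minus P9, 0.02 without WT H3K27ac replicate 2). At kept regions the PU.1 share absent from IRF8KO ran from 14.3% to 33.7%. Macrophage minus P14 ran from −26.2 to −4.93 points and from −0.44 to −0.10 on the log2 scale. Without IRF8KO H3K27ac replicate 1 those log2 differences were 0.47 and 0.36 (exact permutation p = 0.0286, adjusted 0.0429). With a replicate block the share differences were 38.6, 22.4 and −16.2 points and the log2 differences 0.28, −0.11 and −0.39; the smallest possible exact p was then 0.25. Cutting WT lists to the length of IRF8KO replicate 1 was not run, since that list is longer. Depth limits absence: a missing peak in the 8.57 M fragments of IRF8KO replicate 2 is weak evidence alone.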
